A study of Mus musculus with 4 samples.

Results

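The MYC and MXD network is a set of basic helix-loop-helix leucine zipper transcription factors that act as dimers. MYC, MYCN and MYCL pair with MAX and activate genes at E-boxes, of which CACGTG is the classic form, while MXD1, MXI1, MXD3, MXD4 and MNT pair with MAX at the same sites and recruit the SIN3 corepressor. MLX is a MAX-like protein that pairs with the glucose-responsive Mondo factors and with some MXD proteins and MNT. In blood cells, MYC is best known for its part in progenitor growth, and MXD genes for their rise as cells leave the cycle and mature.

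The members were the 10 genes Myc, Mycn, Mycl, Max, Mxd1, Mxd3, Mxd4, Mxi1, Mnt and Mlx, found by symbol among 52636 gene lines. Of the 10, 9 passed the filter on low counts, which kept 11444 genes, and Mycl did not. RNA came from mouse Hoxb8 cells, a line named for the homeobox gene, in 2 groups: cells expressing DNMT3A R882H (R882H, n = 2 libraries), a leukaemia-associated form of a DNA methyltransferase, and cells carrying the empty vector (EV, n = 2). All 4 libraries share the line, and the labels give neither the promoter of the vector, nor the species of its insert, nor whether a group is 1 clone, nor whether its libraries came from cultures kept apart. The p-values therefore cover the spread between libraries, which may be technical. Libraries were made with a 3′ tag protocol (QuantSeq), which reads the end of each poly(A) transcript. Levels in CPM (counts scaled to an equal library size) therefore need no length correction when set side by side between genes. Whether the ends of different genes are read equally well was not tested.

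Totals were 5847609 to 5921985 counts in R882H libraries and 5470330 to 5605092 in EV libraries. The count of Dnmt3a, the gene whose variant was expressed, was 254 and 239 in R882H against 264 and 270 in EV. Its 3′ tags may miss an insert that lacks the native gene end, so they do not check the labels. All 8 myeloid progenitor markers were detected in every library, and 5 were higher in R882H, while Cd34, Elane and Prtn3 were not called. Their sums were 5573 and 5530 CPM in R882H against 3509 and 3392 CPM in EV, summed over all 8. The largest part of this difference was Mpo, at 1213 and 1270 CPM in R882H against 30.4 and 34.9 CPM in EV. Markers of other cell types moved with the groups too, and the part of any of these markers in the results below was not tested. B-lineage markers summed to 1664 and 1676 CPM in R882H against 567 and 548 CPM in EV, with 7 of 7 tested members higher in R882H and Pax5 at 0 in EV. Basophil and mast cell markers summed to 374 and 394 CPM in R882H against 42.2 and 44.1 CPM in EV, with Fcer1a at 0 throughout. Monocyte and macrophage markers summed to 169 and 154 CPM in R882H against 91.3 and 100.4 CPM in EV, with Ccr2 and Cd68 higher in R882H, Csf1r not called, and Adgre1 lower, at 3.85 and 3.86 CPM in R882H against 14.1 and 14.7 CPM in EV. Megakaryocyte markers summed to 27.3 and 22.3 CPM in R882H against 1042 and 851 CPM in EV, where Pf4 made up nearly all of the EV sums. Of the other tested megakaryocyte markers, Itga2b was higher, at 6.36 and 5.62 CPM in R882H against 2.02 and 2.65 CPM in EV, and Gp9 was not called. T-lineage markers summed to 12.5 and 8.95 CPM in R882H against 622 and 713 CPM in EV, mostly Thy1, with Cd3e and Cd3g at 0. Erythroid markers stayed at 2.51 and 1.58 CPM in R882H and 2.75 and 2.65 CPM in EV, 4 of 5 neutrophil markers were at 0 in each group, and all 4 fibroblast markers were at 0. The 4 Y-linked genes Ddx3y, Eif2s3y, Kdm5d and Uty summed to 18.4 and 15.3 CPM in R882H against 0.367 and 0.706 CPM in EV, while Xist had 315 and 265 CPM in R882H and 268 and 254 CPM in EV. The groups thus differed in Y-linked RNA, and a difference in cell origin or clone cannot be told apart from the expression of R882H. In bulk RNA, a change in the number of cells of a type and a change in RNA per cell cannot be told apart.

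Of the 9 tested members, 4 were higher in R882H cells and none was lower. Myc, Mycn, Mxd1 and Mxd4 passed the edgeR quasi-likelihood test at a Benjamini-Hochberg adjusted p of 0.05, and only genes past it are called here, or said to have risen or fallen. Of all tested genes 38.8% were called, 19.3% higher and 19.4% lower in R882H, so 4 called of 9 tested members is close to the share among all genes. Mycn, at 0 in EV, was tested only because of its R882H counts, so it could be called only as higher. At an unadjusted p under 0.05, edgeR had 2 of 9 members lower in R882H, Mxd3 and Mlx, against 23.3% of all tested genes. DESeq2 called no member lower. In CPM, both R882H libraries lay on one side of both EV libraries for all 9 tested members, against 69.1% of all tested genes. Those that rose belong to both the activating arm (Myc, Mycn) and the repressing arm (Mxd1, Mxd4).

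**Figure D1:**
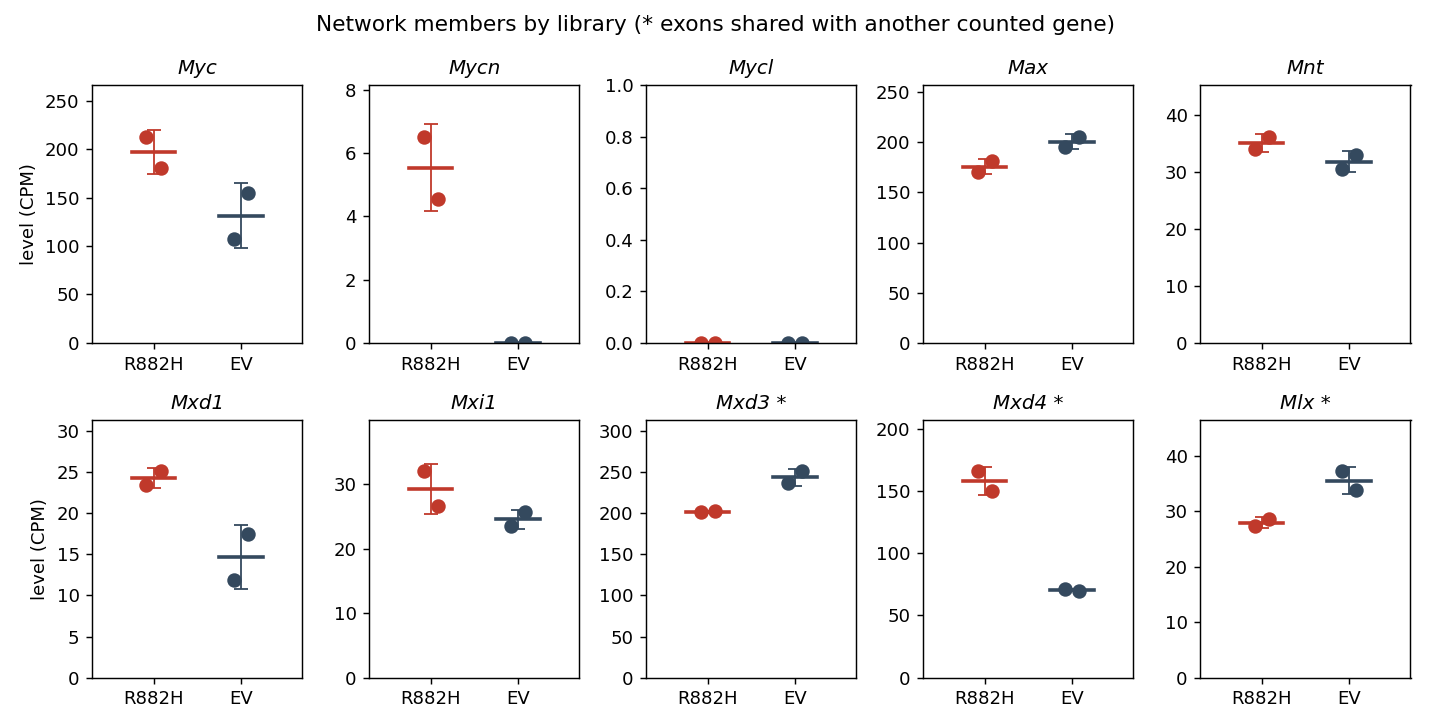
Level of each network member in CPM (y axis, from 0, own scale per panel) in R882H and EV libraries; points are libraries, horizontal lines are means and error bars are SD (n = 2 per group). Mycn is present in R882H and at 0 in EV, Mycl is at 0 throughout, Mxd4 separates the groups with 166 and 149.9 CPM in R882H against 71.3 and 69.9 CPM in EV, and asterisks mark Mxd3, Mxd4 and Mlx, whose exons are shared with another counted gene.

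Myc, the family member that most blood progenitors use (ENSMUSG00000022346, mm10 chromosome 15, 61985391 to 61990374, plus strand), had 213 and 181 CPM in R882H libraries against 107 and 155 CPM in EV libraries. All R882H values were above both EV values, but the EV libraries stood well apart from each other. The mean was 196.9 ± 22.8 CPM in R882H and 131 ± 33.6 CPM in EV (SD, n = 2 each), which gave 0.58 ± 0.15 (SE) for the log2 fold change (edgeR adjusted p = 0.00195). EV replicate 2 held 1.44 times the Myc of EV replicate 1, with an exact 95% interval of 1.297 to 1.604 for counting error alone. The call ended without EV replicate 1, where the log2 fold change was 0.34 (edgeR adjusted p = 0.0562), and without R882H replicate 1, where it was 0.48 (edgeR adjusted p = 0.0569). The long noncoding RNA gene Pvt1, the neighbour of Myc on chromosome 15, had 45 and 48 counts in R882H against 45 and 29 in EV and was not called (log2 fold change 0.26 ± 0.29, edgeR adjusted p = 0.512).

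Mycn, the paralogue best known from neural tissue and neuroblastoma (ENSMUSG00000037169, chromosome 12, 12936093 to 12941914, minus strand), had 39 and 26 counts in R882H libraries and 0 and 0 in EV libraries. This is 6.53 and 4.56 CPM in R882H. A count of 0 allows about 3 counts at the 95% level, which correspond to 0.550 and 0.530 CPM in the EV libraries. Set against 3 counts over the EV group, the pooled R882H counts of Mycn gave a fold of 20.6 (edgeR adjusted p = 7.01e-08). This bound allows for counting error in EV but not in R882H. Mycn passed the filter on low counts through its R882H libraries alone, so its call adds nothing to the counts themselves. The mean level of Mycn in R882H, 5.54 ± 1.39 CPM, was even so far below that of Myc, so Mycn added little to the summed MYC family transcript. Mycl, the third paralogue (chromosome 4, 122995652 to 123002485), had 0 counts in all 4 libraries, which at the same 95% level allows 0.502 to 0.550 CPM per library.

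The promoter window of Mycn is shown because this gene was detected in 1 group alone. It covers 250 bases before to 50 after the start in RefSeq (GRCm38.p6, the assembly behind mm10), chr12:12941787-12942086, minus strand. Capitals mark TTTGGCGC, an E2F-type string that occurs here as a close pair, the first copy 183 bases before the start.
Mycn: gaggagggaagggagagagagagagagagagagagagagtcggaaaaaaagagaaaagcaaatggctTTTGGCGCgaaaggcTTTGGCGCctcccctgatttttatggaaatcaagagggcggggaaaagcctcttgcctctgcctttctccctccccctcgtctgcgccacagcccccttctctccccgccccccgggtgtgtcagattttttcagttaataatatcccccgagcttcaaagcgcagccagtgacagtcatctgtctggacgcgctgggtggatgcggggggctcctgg
TTTGGCGC, on either strand, was present in 0.514% of 32851 promoter windows of this length, and in no other member's window. The E-box CACGTG was not found in the Mycn window. The string was chosen after the sequence was seen, and a match describes letters, not binding.

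Max, the shared partner (ENSMUSG00000059436, chromosome 12, 76937269 to 76962201, minus strand), was among the most abundant members and was not called. It had 171 and 181 CPM in R882H against 195 and 206 CPM in EV, with no overlap. The log2 fold change was −0.19 ± 0.13 (edgeR adjusted p = 0.258). Within a library, Myc counts were 1.25 and 0.999 times those of Max in R882H against 0.551 and 0.753 times in EV, so the libraries differed in this ratio by 0.79 on the log2 scale on average. With 6 splits of 4 libraries the exact two-sided permutation p of this ratio was 0.333, the smallest it can take.

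Mxd4, an MXD repressor gene (ENSMUSG00000037235, chromosome 5, 34173883 to 34187720, minus strand) had 166 and 149.9 CPM in R882H libraries against 71.3 and 69.9 CPM in EV libraries. Both R882H libraries lay far above both EV libraries and the replicates of each group were close, with means of 157.9 ± 11.4 CPM in R882H and 70.6 ± 1.02 CPM in EV (SD, n = 2 each). The log2 fold change of 1.16 ± 0.13 (edgeR adjusted p = 1.02e-08) was larger in size than that of 88.0% of tested genes. The exons of Mxd4 share 514 of 8483 bases, from 4 bases before its annotated end, with the antisense gene Gm42846, which had 646 and 589 counts in R882H against 206 and 189 in EV. The strand setting of the counting is not given, so reads there cannot be told apart. If every Gm42846 count were also a count of Mxd4 and were removed, Mxd4 would keep 57.9 and 46.5 CPM in R882H against 33.6 and 36.5 CPM in EV, with 0.58 ± 0.16 for the log2 fold change (edgeR adjusted p = 0.00349). On the deposited counts its fold change was the largest among the 4 MXD genes, and with that removal it was below the 0.72 of Mxd1.

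Mxd1, an MXD gene induced as myeloid cells mature (ENSMUSG00000001156, chromosome 6, 86647042 to 86669161, minus strand), was a low-abundance member that rose. It had 23.4 and 25.1 CPM in R882H against 11.9 and 17.5 CPM in EV, and the EV libraries again differed, by a ratio of 1.47 (exact 95% interval 1.06 to 2.04). The log2 fold change was 0.72 ± 0.20 (edgeR adjusted p = 0.00377), and without EV replicate 1 it was 0.47 and the call ended (edgeR adjusted p = 0.0926). Mxi1, also called MXD2 (chromosome 19, 53310518 to 53375810, plus strand), had 32.0 and 26.5 CPM in R882H against 23.5 and 25.6 CPM in EV. Its nearest R882H and EV libraries almost met, and it was not called (log2 fold change 0.25 ± 0.17, edgeR adjusted p = 0.251).

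Mxd3, the member of the family linked to proliferating rather than maturing cells, had the highest mean level of all members in each group, on counts that cannot be told apart from those of a neighbour. It had 201 and 203 CPM in R882H against 237 and 251 CPM in EV, with −0.27 ± 0.13 for the log2 fold change, and was not called (edgeR adjusted p = 0.0953). Without EV replicate 1 it was −0.32 and the gene was called lower (edgeR adjusted p = 0.0455). Mxd3 (chromosome 13, 55325168 to 55329823, minus strand) shares 105 of its 2369 exon bases, its annotated 3′ end included, with Prelid1 on the other strand, which encodes a mitochondrial lipid transfer protein. Counts of Prelid1 were 1273 and 1218 in R882H and 1410 and 1661 in EV, close to the 1203 and 1155 of Mxd3 in R882H and its 1291 and 1423 in EV. The ratio of Mxd3 to Prelid1 was 0.945 and 0.948 in R882H against 0.916 and 0.857 in EV, and was below 1 in every library.

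Mnt and Mlx were not called. Mnt, a broadly expressed repressor that antagonises MYC (chromosome 11, 74830920 to 74845725, plus strand), had 34.0 and 36.2 CPM in R882H against 30.4 and 33.0 CPM in EV (log2 fold change 0.14 ± 0.16, edgeR adjusted p = 0.516). The change was smaller than that of most tested genes, of which 22.2% changed less. Mlx (chromosome 11, 101087277 to 101092207, plus strand) had 27.3 and 28.6 CPM in R882H against 37.2 and 33.9 CPM in EV (log2 fold change −0.35 ± 0.16, edgeR adjusted p = 0.0932). Mlx shares 385 of 1999 exon bases, its annotated end included, with Psmc3ip on the other strand, which had 200 and 201 counts in R882H against 243 and 216 in EV, above the 163 and 163 of Mlx in R882H and its 203 and 192 in EV.

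**Figure D2:**
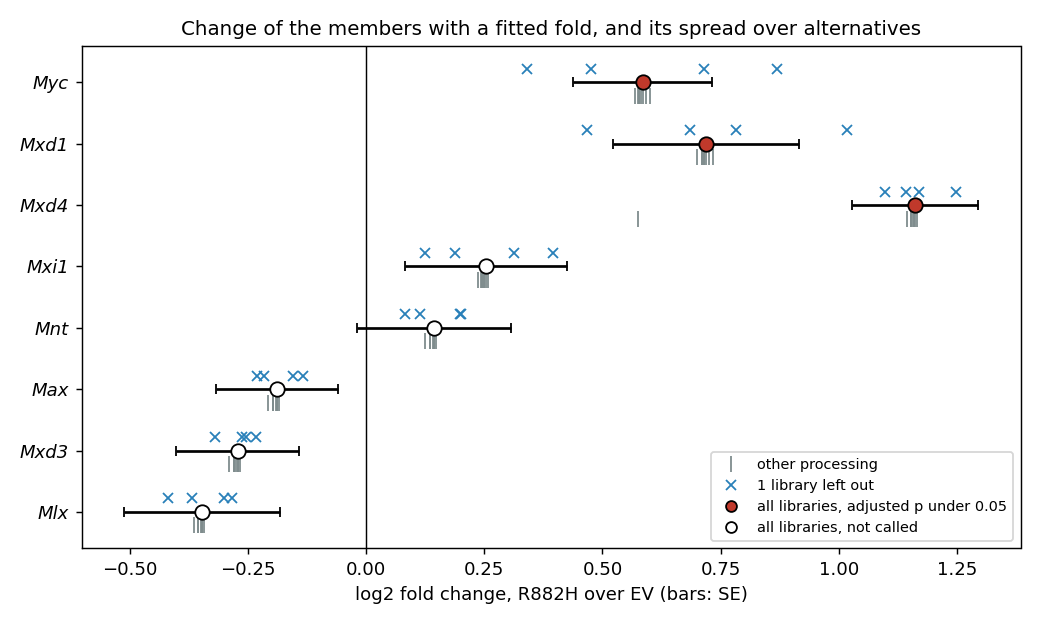
Log2 fold change, R882H over EV (x axis), of the 8 members with a fitted fold; circles with SE bars are the fit over all 4 libraries, filled where called, crosses the fits with 1 library left out and ticks the other processing alternatives. Myc spreads from 0.34 to 0.87 when 1 library is left out, and the lone tick of Mxd4 at 0.58 is the fit after removal of the counts of the overlapping antisense gene.

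E-boxes in the members' own promoters are shown because network proteins bind them. RefSeq windows were matched for 9 of the 10 members, Myc having none in the table, and CACGTG, which reads the same on both strands, was present in 4 of them: Max, Mlx, Mnt and Mxd4. Among 32851 windows of the same length, 7.15% held it, and counted by gene, 8.09% of 27025 genes had it in a window. Each E-box, in capitals, is printed with 12 bases on either side, 5′ to 3′ on the gene's strand, from chr12:76962234-76962263 (minus), chr11:101087238-101087267 (plus), chr11:74830789-74830818 (plus) and chr5:34187912-34187941 (minus), all GRCm38.p6.
Max: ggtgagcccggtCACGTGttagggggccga
Mlx: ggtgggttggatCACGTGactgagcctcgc
Mnt: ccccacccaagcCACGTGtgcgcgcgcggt
Mxd4: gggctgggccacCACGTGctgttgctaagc
The E-boxes began 3, 40, 123 and 219 bases before the start of Max, Mlx, Mnt and Mxd4. Of these 4 genes Mxd4 alone was called, and of the called members Mycn and Mxd1 had no CACGTG in their windows, so the letters did not separate called from uncalled members.

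The order of the members by level differed between the groups. In R882H, Mxd3 (202 ± 1.03 CPM) was followed by Myc (196.9 ± 22.8 CPM), Max (175.9 ± 7.17 CPM) and Mxd4 (157.9 ± 11.4 CPM), then by Mnt, Mxi1, Mlx and Mxd1 between 35.1 and 24.3 CPM, Mycn and Mycl. Neighbours whose R882H libraries overlapped were Mxd3 with Myc, Myc with Max, and Mxi1 with Mlx. In EV, Mxd3 (244 ± 10.2 CPM) was followed by Max (200.5 ± 7.56 CPM), Myc (131 ± 33.6 CPM) and Mxd4 (70.6 ± 1.02 CPM), then by Mlx, Mnt, Mxi1 and Mxd1 between 35.6 and 14.7 CPM, and no neighbours with counts overlapped. The mean level of Myc was above that of 92.0% of tested genes in R882H and of 86.7% in EV. On the deposited counts, that of Mxd4 was above 89.5% in R882H and 74.6% in EV. Counts of Mxd3, Mxd4 and Mlx may include reads of overlapping genes, so their levels and places in this order are uncertain. Without the counts of Gm42846, Mxd4 would keep 57.9 and 46.5 CPM in R882H against 33.6 and 36.5 CPM in EV.

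**Figure D3:**
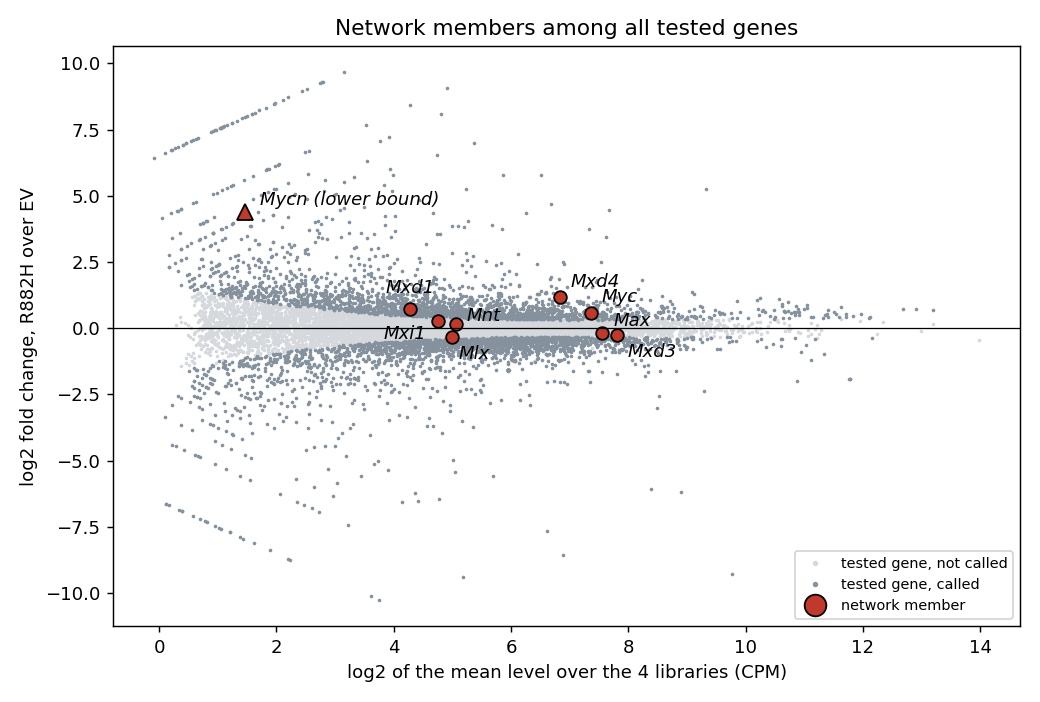
Log2 fold change, R882H over EV (y axis), against the log2 of the mean level in CPM over the 4 libraries (x axis) for all 11444 tested genes (grey, darker where called) and the members (red); fitted folds of grey genes at 0 in a group depend on the prior count. Mxd4 at 1.16 and Mycn at a bound of 4.37 lie above the bulk of genes, while Max, Mnt and Mxi1 lie within it. The Mycn bound allows for counting error in EV alone.

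The MYC family held a larger share of the network transcripts in both R882H libraries than in both EV libraries, and Max a smaller one. Over the 7 members with no shared exons, the MYC family held 45.8% (95% Wilson interval 43.95 to 47.6) and 40.8% (38.9 to 42.7) of counts in R882H libraries, against 29.2% (27.2 to 31.2) and 35.5% (33.6 to 37.4) in EV libraries. Max held 35.6% (33.9 to 37.4) and 39.9% (38.0 to 41.75) in R882H, against 53.0% (50.8 to 55.1) and 47.1% (45.15 to 49.1) in EV. Mxd1 and Mxi1 together held 11.5% (10.4 to 12.8) and 11.4% (10.2 to 12.65) in R882H against 9.61% (8.39 to 10.97) and 9.86% (8.75 to 11.1) in EV. Groups did not overlap for any of these 3 shares, with an exact two-sided permutation p of 0.333, the smallest that 2 against 2 libraries allow. The shares are parts of the same total in a library, so they are not independent results, and Max itself was not called. Over all 10 members, the MYC family share was 23.6% ± 2.07 in R882H and 17.3% ± 3.19 in EV, that of Max 20.6% ± 1.50 in R882H and 26.7% ± 0.952 in EV, and that of the 4 MXD genes 48.4% ± 0.0340 in R882H and 47.1% ± 1.51 in EV (SD, n = 2 each). The MXD share rests mainly on Mxd3 and Mxd4, whose counts are uncertain. Within it, Mxd4 had 0.825 and 0.739 times the counts of Mxd3 in R882H against 0.301 and 0.278 times in EV. Intervals cover counting error only.

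**Figure D4:**
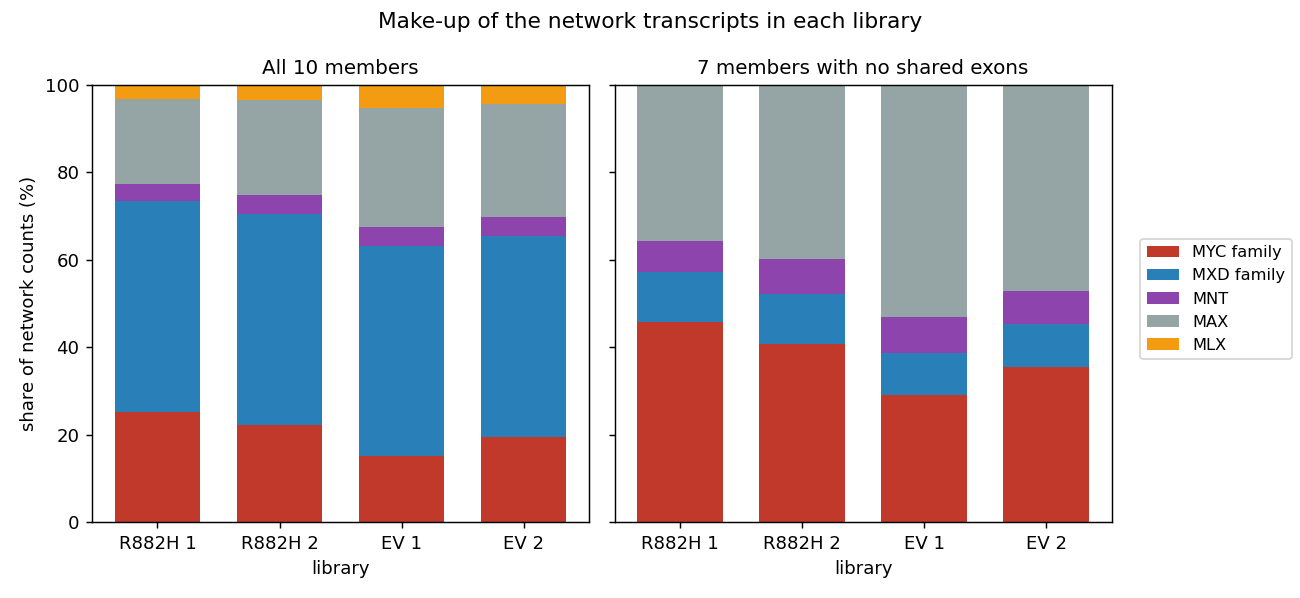
Share of network counts in percent (y axis, 0 to 100) held by each class in the 4 libraries (x axis), over all 10 members (left) and over the 7 whose exons are shared with no other counted gene (right). The MYC family (red) reaches 45.8% and 40.8% in R882H against 29.2% and 35.5% in EV on the right, and Max (grey) takes the larger part of what remains.

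Partners of the network were described by lists, each count standing beside the 38.8% called and the median log2 fold change of 0.01 over all tested genes. Of the remaining MAX and MLX partners, the repressor Mga (36.5 and 36.9 CPM in R882H against 42.0 and 47.5 CPM in EV) and the MondoA gene Mlxip (26.3 and 28.3 CPM in R882H against 22.4 and 30.7 CPM in EV) were not called, and Mlxipl had 1 and 0 counts in R882H and 1 and 0 in EV. Of 13 MYC cofactor genes, 5 fell and none rose, with a median of −0.29. The called share of 38.5% was close to that of all tested genes, of which 19.4% were lower and 19.3% higher in R882H. Trrap, the scaffold of histone acetyltransferase complexes, had 10.5 and 11.6 CPM in R882H against 23.7 and 31.4 CPM in EV (log2 fold change −1.32 ± 0.20, edgeR adjusted p = 2.21e-06). The acetyltransferase gene Kat2a (−0.72 ± 0.19), the remodeller gene Ep400 (−0.62 ± 0.14) and Hcfc1 (−0.52 ± 0.14) fell as well. The call of Kat2a ended without EV replicate 2 (edgeR adjusted p = 0.149), that of Ep400 without R882H replicate 2 (edgeR adjusted p = 0.0932), and that of Hcfc1 without EV replicate 2 (edgeR adjusted p = 0.0518) and without R882H replicate 1 (edgeR adjusted p = 0.0688).

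The SIN3 corepressor, through which MXD proteins and MNT repress, moved in both directions. Of its 15 genes 2 rose, 4 fell and 9 were not called, with a median of −0.06. The called share of 40% was close to the 38.8% of all tested genes. The deacetylase gene Hdac2 rose (181 and 190 CPM in R882H against 111 and 126 CPM in EV, log2 fold change 0.64 ± 0.13, edgeR adjusted p = 0.000189), while its paralogue Hdac1, at a level far lower, fell (15.2 and 12.6 CPM in R882H against 25.3 and 18.5 CPM in EV, −0.65 ± 0.20, edgeR adjusted p = 0.0103). The SIN3-associated gene Sinhcaf rose (0.51 ± 0.13) and Arid4b fell (−0.64 ± 0.14), both with exons shared with another gene, and Sin3b (−0.34 ± 0.13, edgeR adjusted p = 0.0355) and Arid4a (−0.41 ± 0.16, edgeR adjusted p = 0.0482) fell near the threshold, with calls in 9 and 5 of their 12 alternatives. The scaffold Sin3a was not called (−0.10 ± 0.14, edgeR adjusted p = 0.614). Hdac1 lost its call in DESeq2 (adjusted p = 0.0816), without EV replicate 1 (edgeR adjusted p = 0.179) and without R882H replicate 2 (edgeR adjusted p = 0.124), and the number of falling genes was 1 in DESeq2 and without R882H replicate 2, and 2 without EV replicate 1 and without R882H replicate 1. Of 11 genes of the MGA-containing Polycomb complex PRC1.6, Pcgf6 (10.9 and 12.6 CPM in R882H against 21.5 and 19.9 CPM in EV, −0.82 ± 0.20, edgeR adjusted p = 0.00148) and Yaf2 (−0.49 ± 0.14, edgeR adjusted p = 0.00606) fell and 9 were not called. The called share of PRC1.6 genes was 18.2%, against 38.8% of all tested genes. Yaf2 lost its call without R882H replicate 1 and without R882H replicate 2.

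Genes that control the lifetime of MYC protein fell in 3 of 9 cases and rose in none, with a median of −0.32. The number that fell was 4 with DESeq2 size factors, with library size only, with the replicate block and without overlapping genes. The called share of 33.3% was near the 38.8% of all tested genes, of which 19.4% were lower in R882H. The ubiquitin ligase gene Huwe1 had 58.2 and 54.4 CPM in R882H against 89.3 and 117.6 CPM in EV (log2 fold change −0.88 ± 0.14, edgeR adjusted p = 6.37e-06). Gsk3b, the kinase that marks MYC for degradation, had 45.3 and 38.1 CPM in R882H against 60.5 and 67.6 CPM in EV (−0.62 ± 0.14, edgeR adjusted p = 0.000876). The ligase that reads that mark, Fbxw7, was not called (−0.36 ± 0.15, edgeR adjusted p = 0.0532). The call of Gsk3b ended without R882H replicate 2 (edgeR adjusted p = 0.0604).

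**Figure D5:**
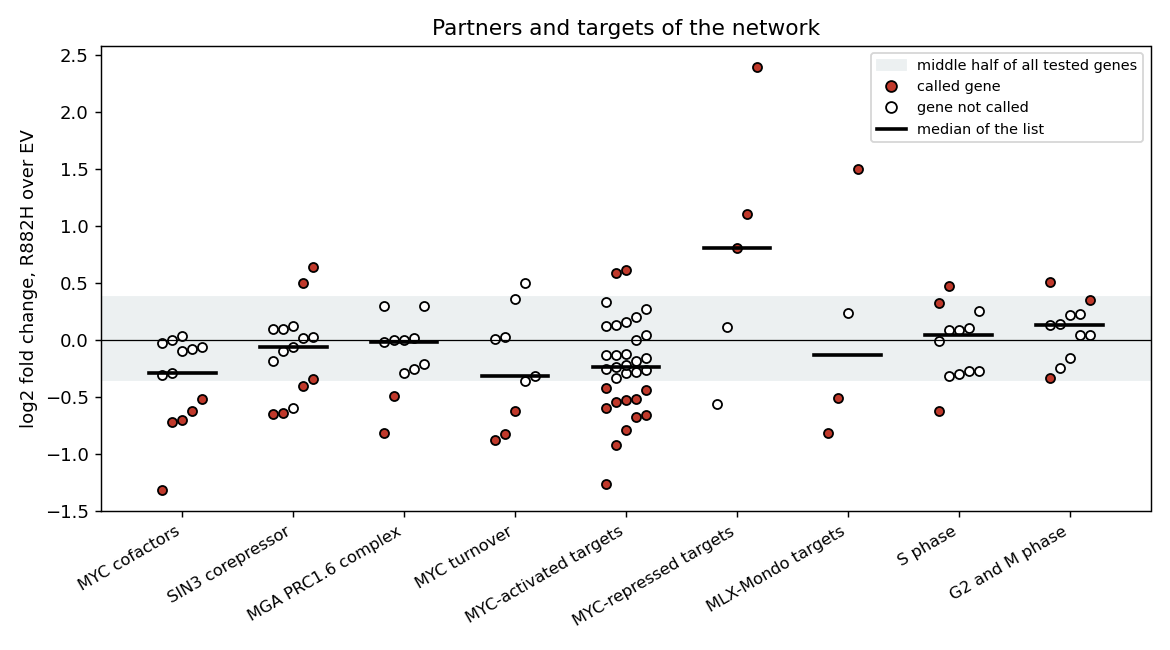
Log2 fold change, R882H over EV (y axis), of every tested gene in 9 lists of network partners, targets and cell cycle genes; red points are called, white points are not, thick lines are list medians and the shaded band holds the central range (first to the third quartile) of all tested genes, from −0.35 to 0.38. The MYC-activated list has its median at −0.24 with 11 falling and 2 rising genes, and the MYC-repressed list has Cdkn1a at 2.40.

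Among genes known as targets of MYC activation, more fell than rose. Of 33 tested targets 11 fell, 2 rose and 20 were not called, with a median log2 fold change of −0.24. The called share of 39.4% was close to the 38.8% of all tested genes. By direction, 19.4% of all tested genes were lower and 19.3% higher in R882H. Hk2, the hexokinase that starts glycolysis, had 31.8 and 31.9 CPM in R882H against 73.4 and 79.8 CPM in EV (log2 fold change −1.26 ± 0.14, edgeR adjusted p = 7.69e-09). The ribosome assembly gene Bop1 had 40.7 and 43.5 CPM in R882H against 67.5 and 92.0 CPM in EV (−0.92 ± 0.15, edgeR adjusted p = 5.48e-06), and the folate cycle gene Mthfd2 had 77.5 and 75.5 CPM in R882H against 115.5 and 129 CPM in EV (−0.68 ± 0.13, edgeR adjusted p = 0.000102). Odc1, the polyamine synthesis enzyme and a classic MYC target, fell (−0.51 ± 0.13, edgeR adjusted p = 0.00206), with its call lost without R882H replicate 1 (edgeR adjusted p = 0.0827). Cad, which encodes the first enzymes of pyrimidine synthesis, fell too (−0.60 ± 0.14, edgeR adjusted p = 0.000826). The most abundant nucleolar targets were not called, with Npm1 at 0.13 ± 0.15 and Ncl at −0.13 ± 0.15 on the log2 scale. The risers were Impdh2, which makes guanine nucleotides (219 and 236 CPM in R882H against 145 and 151 CPM in EV, 0.62 ± 0.13, edgeR adjusted p = 0.000265), and the cyclin gene Ccnd2 (352 and 322 CPM in R882H against 242 and 206 CPM in EV, 0.59 ± 0.13, edgeR adjusted p = 0.000602). Of the 13 called targets 6 share exons with another counted gene, both risers among them, and without such genes 7 fell and none rose. Without R882H replicate 1, 6 fell, and without EV replicate 1, 5 rose.

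Of 5 tested genes that MYC is known to repress, 3 rose in R882H and none fell, with a median of 0.81. The called share was 60%, against 38.8% of all tested genes, of which 19.3% were higher in R882H. The cyclin-dependent kinase inhibitor genes had the largest changes. Cdkn1a, which encodes p21, had 81.3 and 98.7 CPM in R882H against 13.8 and 20.3 CPM in EV (log2 fold change 2.40 ± 0.17, edgeR adjusted p = 8.08e-14), and Cdkn1b, which encodes p27, had 54.4 and 55.8 CPM in R882H against 25.9 and 25.2 CPM in EV (1.11 ± 0.16, edgeR adjusted p = 6.22e-07). The stress gene Ndrg1, whose exons are shared with Gm17035, also rose (31.0 and 27.2 CPM in R882H against 17.8 and 15.4 CPM in EV, 0.81 ± 0.18, edgeR adjusted p = 0.000484). Gadd45a (−0.56 ± 0.24, edgeR adjusted p = 0.0646) and Gadd45b were not called, and Cdkn1c, Cdkn2b and Ndrg2 had too few counts to be tested.

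The targets of MLX and its Mondo partners were split. Txnip, the thioredoxin-interacting gene that MondoA controls most directly, had 191 and 129 CPM in R882H against 54.1 and 59.5 CPM in EV (log2 fold change 1.50 ± 0.15, edgeR adjusted p = 1.84e-09). The fatty acid synthase gene Fasn had 228 and 184 CPM in R882H against 347 and 378 CPM in EV (−0.82 ± 0.14, edgeR adjusted p = 1.07e-05), and the transketolase gene Tkt fell (−0.51 ± 0.15, edgeR adjusted p = 0.00603). The call of Tkt ended without EV replicate 2 (edgeR adjusted p = 0.0785) and without R882H replicate 1 (edgeR adjusted p = 0.214). Klf10 was not called, and Arrdc4 and Pklr had too few counts to be tested. The called share was 75% of 4 tested targets, against 38.8% of all tested genes.

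Of the cell cycle genes, beside which Myc and MXD levels are often read, most were not called, as was true of all tested genes. Called were 25% of S phase and 27.3% of G2 and M phase genes, against 38.8% of all tested genes. Of 12 S phase genes 2 rose (Mcm6, 0.47 ± 0.13, and Gins2, 0.33 ± 0.13), 1 fell (Rrm2, −0.62 ± 0.13) and 9 were not called, with a median log2 fold change of 0.04. Of 11 G2 and M phase genes 2 rose (Cdk1, 0.51 ± 0.14, and Top2a, 0.36 ± 0.13), 1 fell (Plk1, −0.33 ± 0.13) and 8 were not called, with a median of 0.13. The proliferation marker Mki67 had 212 and 226 CPM in R882H and 214 and 212 CPM in EV (log2 fold change 0.04 ± 0.13, edgeR adjusted p = 0.825). Except for Rrm2, each of these calls ended in at least 1 alternative. Gins2, whose exons are shared with Gse1, was called in 3 of 11 alternatives and Plk1 in 5 of 12. Top2a was called in 9, Mcm6 in 10 and Cdk1 in 11 of 12.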

How the data were processed

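The authors deposited 1 table of whole-number counts per gene for 4 QuantSeq 3′ tag libraries. Per the submitters' processing notes, the tools were bcl2fastq 2.17.1.14, cutadapt 1.14, HISAT2 2.0.4, featureCounts of Subread 2.0.0, edgeR 3.34.0 and limma 3.48.3, with build mm10; the sources used here do not give the strand setting or the annotation. Molecular identifiers are not mentioned, so intervals and floors cover counting error only.

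Counts were tested with the quasi-likelihood test of edgeR 4.0.16 (R 4.3.3): filterByExpr, TMM scaling, robust fit, R882H over EV, 2 libraries each, Benjamini-Hochberg adjustment over all 11444 genes kept, threshold 0.05. Levels are CPM on TMM-scaled library sizes. The fit was also run on simulated counts with the same variability setting for every gene, and that run is not used as support for any result here. Alternatives were other scalings, other filters, DESeq2 1.42.0, a replicate block, leaving out each library, and leaving out genes whose exons overlap another gene. Class shares and ratios were compared with an exact permutation test. Exon overlaps and positions came from the GENCODE M21 annotation (GRCm38, equal to mm10), which gave a symbol to 52489 of 52636 gene lines. Promoter windows came from RefSeq (GRCm38.p6).

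The members and lists were chosen with earlier results of these data known. All members are named; from each list, up to 4 called genes with the smallest p and up to 2 called against the majority. Other named genes were chosen after their values were seen. Some genes of the lists enter the counts but are not reported here by name.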

Additional observations from a re-analysis of the deposited data

How the results depend on the processing

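Of the members, Myc ranged from 0.34 to 0.87 and Mxd1 from 0.47 to 1.02 with 1 library left out, Mxd3 from −0.32 to −0.23, and the members called higher numbered 2 to 4 and lower 0 to 1. Max, Mxi1, Mnt and Mlx were called under no alternative, and Mycn under all 12, with a bound of 10.1 to 24.4. Removal of the antisense counts, chosen after seeing the data, took Mxd4 to 0.58. Without the members that share exons, the share difference was 10.97 points for the MYC family (6.34 with all), −0.39 for Mnt and −12.30 for Max (−6.06 with all). The Mnt difference was −0.33 to 0.11 points with 1 library left out, changing sign without R882H replicate 1 (0.11). With 1 library left out, Pvt1 ranged from −0.055 (without EV replicate 2) to 0.63, and Mlxip from −0.18 (without EV replicate 1) to 0.28, with −0.00043 without R882H replicate 2. Neither was called.

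Of all genes, DESeq2 called 1401 higher, against 2213 in edgeR, and 1446 to 2168 were lower with 1 library left out, against 2222. Without overlapping genes, 1 SIN3 gene rose, 0 MYC-activated targets rose and 7 fell, 1 MLX-Mondo target fell, and 1 S phase gene rose and 2 fell. DESeq2 left 1 SIN3 gene lower, 1 S phase gene higher and 0 G2 and M phase genes lower. S phase genes higher numbered 1 with DESeq2 size factors, library size only (2 lower), no filter and the replicate block. G2 and M phase genes lower numbered 0 with no filter, without the robust fit and with the block. With 1 library left out, the counts were 1 to 3 lower for SIN3, 1 to 2 for PRC1.6, 2 to 5 higher and 6 to 13 lower for MYC-activated, 0 to 1 lower for MYC-repressed and 1 to 2 for MLX-Mondo targets. S phase had 0 to 2 higher and 1 to 3 lower, and G2 and M phase 0 to 2 higher and 0 to 2 lower. The cause of these shifts was not tested.

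The labels number the libraries 1 and 2 in both groups. Deviations of same-numbered libraries had a correlation of 0.00392 over 11444 genes, so no shared deviation was seen. This value cannot tell whether same-numbered libraries were handled together. With the replicate block, 4 members were higher and 0 lower, 2196 genes were higher and 2229 lower, and G2 and M phase genes higher numbered 1. Counts below the floor of 3 limit what can be said of Mycl in every library and of Mycn in EV.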

Other observations

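Bmyc, a rodent relative of Myc whose product has the amino-terminal MYC homology but no DNA-binding and zipper region, was not among the members and was chosen after its values were seen. It had 33.6 and 37.2 CPM in R882H libraries against 13.8 and 17.8 CPM in EV libraries (chromosome 2, 25706739 to 25707721). Both R882H libraries were above both EV libraries, and the log2 fold change was 1.16 ± 0.18 (edgeR adjusted p = 3.20e-06). It was called in all 12 alternatives, with values between 0.98 and 1.36.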
